A study of Homo sapiens with 10 samples.

Results

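The p53 target genes and p53 regulators described here are 35 genes, taken by name from what is known of the pathway, out of 59453 genes in the count tables. They were chosen with earlier results of these data known, so their shares against all genes are not free of that choice. Of the 35, 32 passed the filter on low counts both between genotypes and after treatment, and EDA2R, TP53INP1 and SPATA18 did not. HAP1, a near-haploid human line derived from the KBM-7 leukaemia line, was profiled by RNA-seq in 10 libraries to compare cells with and without the DNA glycosylases OGG1 and MUTYH, which act on 8-oxoguanine and on the adenine opposite it. Untreated libraries came from 2 clones each of wild type (WT, clones 2 and 11), MUTYH knockout (clones 7 and 8), OGG1 knockout (clones 1 and 22) and double knockout (DKO, clones 4 and 14). WT clones 2 and 11 were also profiled 24 h after 100 µM hydrogen peroxide (H2O2). All groups share the HAP1 background, the knockout clones were made with CRISPR-Cas9, and both DKO clones were made from the same OGG1 knockout clone, so they are not independent edits of OGG1. Each group is 2 libraries, and p-values rest on the spread between these.

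p53 is a transcription factor that is kept low by the ubiquitin ligase MDM2 and its partner MDM4, and that accumulates after DNA damage. It binds response elements near its target genes, whose products arrest the cell cycle, trigger apoptosis, repair DNA or adjust metabolism, and some of which (MDM2, PPM1D and CCNG1) feed back on p53 itself. HAP1 is known as a line whose p53 protein has impaired function.

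Depth was even, from 22225091 to 22674964 counts per library, and mitochondrial genes took 2.995% to 7.455%, with the lowest shares in the treated WT libraries. OGG1 had 27 counts in OGG1 knockout clone 1 and 254 in clone 22, 215 and 223 in DKO, and 275 to 331 in WT and MUTYH knockout libraries. MUTYH had 50 to 119 counts in all 10, so mRNA did not mark the MUTYH knockouts. Of 12 haematopoietic markers, 7 were under 10 counts in every library and 3 were at 0 in all of them, and KIT carried most of the summed 82 to 435 counts. The untreated libraries also fell into 2 sets that cross the genotypes, found from the first principal component of all genes within genotypes with the 35 genes left out (49.9% of that variance). Set A holds clone 2 of WT, clone 8 of MUTYH knockout, clone 22 of OGG1 knockout and clone 14 of DKO, and set B the other clone of each genotype.

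The p53 response element is a pair of 10-letter motifs. Matches to it near the start sites of the best-known members are shown, found by their letters alone and without binding data. The search took 3000 bases on either side of each gene's RefSeq start sites, on both strands of GRCh38, and kept adjacent pairs of the p53 consensus with at most 2 mismatches in 20 letters and the C and G of each motif intact. Of 28 members with a start site in the table, 14 (50%) had such a pair, against 605 of 11301 tested genes (5.35%). With at most 1 mismatch the shares were 5 of 28 (17.9%) and 0.743%. The members were picked from the p53 pathway, so a larger share among them was given in advance. The 28 also include EDA2R and SPATA18, which had pairs but were not tested, while the 11301 hold tested genes only. A match is a description and not a binding site, and no match says only that these letters are absent from the window. TP53INP1, RRM2B, GADD45A, TNFRSF10B, PHLDA3, FBXO22 and TNFRSF10A had no start site in the table. The sequences are printed 5′ to 3′ on the strand of the gene, with the fixed C and G of each motif in capitals.
PLK2: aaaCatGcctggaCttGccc
ZMAT3: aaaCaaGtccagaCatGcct
DDB2: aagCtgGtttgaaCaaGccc
CDKN1A: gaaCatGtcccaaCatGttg
MDM2: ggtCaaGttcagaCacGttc
FAS: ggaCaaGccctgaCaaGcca
BTG2: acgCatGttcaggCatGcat
PMAIP1: gggCttGtttaccCaaGtct
AEN: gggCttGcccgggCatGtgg
The pairs of PLK2 (chr5:58462274-58462293, upstream of the start site by 2198 bases) and ZMAT3 (chr3:179070188-179070207, upstream by 856 bases) matched the consensus with 0 mismatches. That of DDB2 (chr11:47214969-47214988) had 1. Those of CDKN1A (chr6:36676449-36676468, upstream by 2256 bases), MDM2 (chr12:68808923-68808942), FAS (chr10:88991309-88991328), BTG2 (chr1:203303642-203303661), PMAIP1 (chr18:59899549-59899568) and AEN (chr15:88621306-88621325) had 2.

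Per kilobase of the Ensembl canonical transcript, the level in untreated WT was highest for CCNG1 (82.6 CPM per kb), AEN (67.9) and BAX (58.2), where CPM is counts scaled to a common library size with TMM factors. Among members that passed the filter it was lowest for TP53TG1 (0.391), a long non-coding RNA, FAS (1.07) and TIGAR (1.29). CDKN1A, the cyclin-dependent kinase inhibitor p21, was ranked 26 of 35 at 2.79 CPM per kb. The transcript that carries the reads was not determined, so these ranks are approximate. EDA2R, a receptor of the tumour necrosis factor family, had 0 to 3 counts in untreated libraries, TP53INP1 1 to 5, and SPATA18 0 to 1.

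H2O2 addressed whether oxidative stress switches on these genes. Without a block for clone, 7 of 32 members were differentially expressed genes (DEGs: edgeR quasi-likelihood P of at most 0.05 and a change over 2-fold), all higher: CDKN1A, GADD45A, PLK2, ZMAT3, FAS, PPM1D and PMAIP1. The share among all 16997 genes tested was 0.741% for DEGs that were higher. After Benjamini-Hochberg adjustment 0 members passed by edgeR (0.0% of all genes). Before adjustment 11 members were past the P threshold, all higher (3.57% of all genes). By the DESeq2 Wald test 1 member passed after adjustment, and the share of all genes under that test is not given here. The treated and untreated libraries are pairs of the same clones, and with clone as a block 10 members passed the adjusted threshold, all higher (1.18% of all genes). These were the same 7 with AEN, TRIAP1 and RPS27L, and DEGs numbered 8 with the block (1.19% of all genes), PHLDA3 being the addition. That fit leaves 1 residual degree of freedom per gene, and the DESeq2 Wald test with the same block passed 4 members, GADD45A, PLK2, PMAIP1 and RPS27L (0.688% of all genes). The other 6 did not pass by DESeq2, with adjusted p = 0.0536 for CDKN1A, 0.073 for TRIAP1, 0.0937 for FAS, 0.475 for AEN, 0.481 for PPM1D and 0.499 for ZMAT3. The median member change was 0.55 on the log2 scale without the block, against 0.00 over all genes, and both treated libraries lay above both untreated ones for 17 members (21.5% of all genes) and below for MDM4 alone (20.0%).

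The size of the response differed between the WT clones. In clone 2, 30 of 32 members were higher after H2O2 (50.6% of all genes) and 14 by over 2-fold (2.36%). In clone 11, 22 were higher (51.9%) and 4 by over 2-fold (2.54%). With its sign kept, the change was higher in clone 2 for 29 members (47.0% of all genes), a smaller fall counting as higher. It was higher by over 1 on the log2 scale for 12 (4.42%), with 0 the other way (4.14%). MDM4 is among the 29, with -0.13 in clone 2 and -0.89 in clone 11. The median member change was 0.89 in clone 2 and 0.10 in clone 11, against 0.00 and 0.02 over all genes. CDKN1A, GADD45A and PLK2, 3 members in all, passed 2-fold in both clones (0.7% of all genes). With 1 treated and 1 untreated library per clone, the difference between clones has no replicates and was not tested, and the 95% intervals given for single clones cover counting error only. They lay apart with clone 2 higher for 24 members, apart with clone 11 higher for PMAIP1 alone, and overlapped for 7. The share of all genes with intervals apart is not given here, so these counts do not tell the members from other genes.

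**Figure D1:**
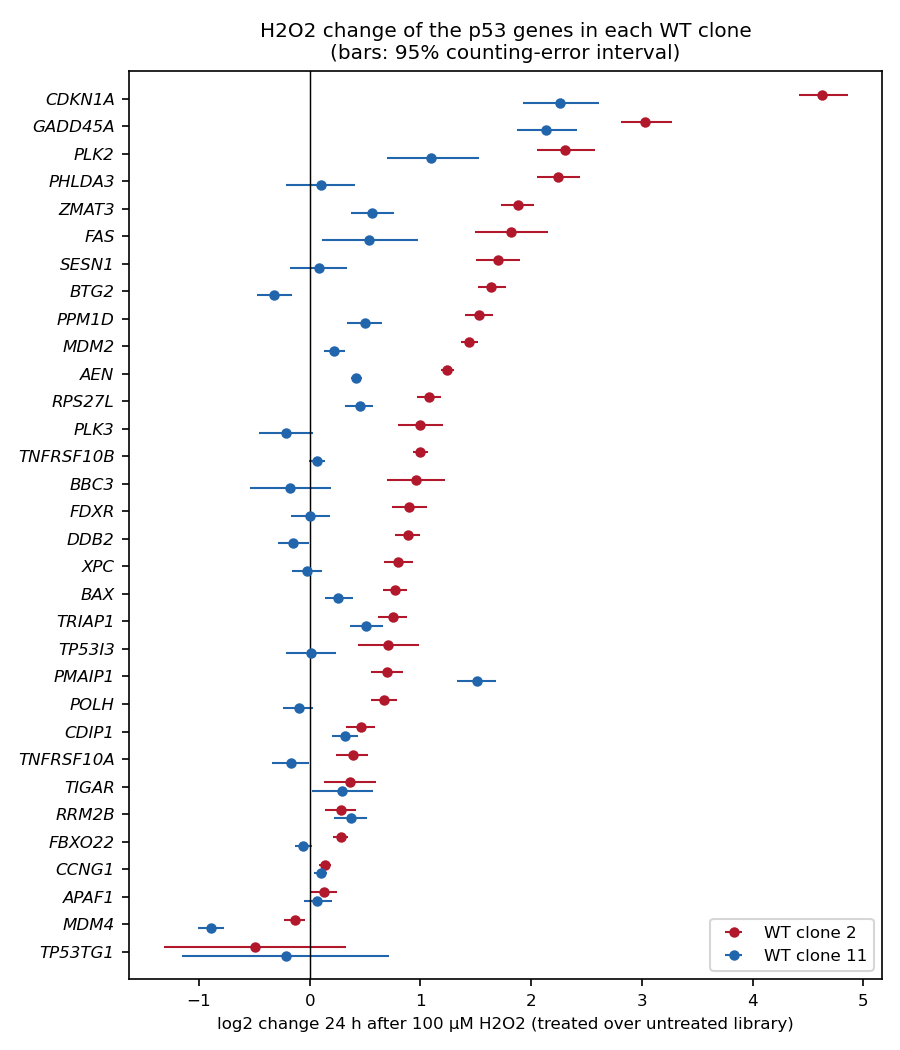
Log2 change 24 h after H2O2 (x axis) of the 32 tested members in WT clone 2 (red) and WT clone 11 (blue), with 95% counting-error intervals as bars. CDKN1A is at the top with 4.63 and 2.26, and PMAIP1 is the member whose clone 11 interval lies above that of clone 2.

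**Figure D2:**
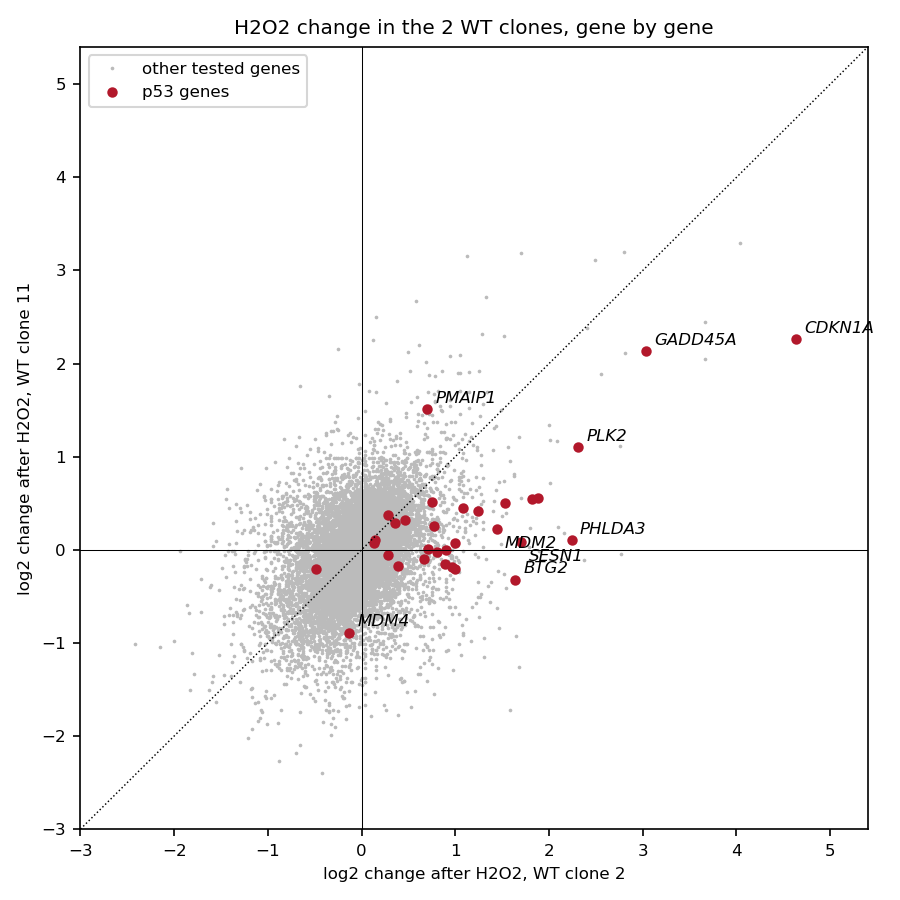
Log2 change after H2O2 in WT clone 2 (x axis) against WT clone 11 (y axis) for the 15456 genes with at least 10 counts in each of the 4 WT libraries (grey) and the 32 members (red), with the line of equal change dotted. Of the members, 29 lie below the line.

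Among the regulators of p53, MDM2 stood at 89.6 and 77.5 CPM in untreated clones 2 and 11, and after H2O2 at 243 and 90.5 CPM. Both treated libraries were above both untreated ones, barely so in clone 11. The change was 2.72-fold in clone 2 and 1.17-fold in clone 11, and 0.99 ± 0.44 (log2, SE) by edgeR without the clone block (adjusted p = 0.638), or 0.83 ± 0.22 with it (adjusted p = 0.0627). PPM1D, the phosphatase that dephosphorylates p53 and its kinases, rose from 29.0 and 26.7 CPM to 83.9 and 37.7 CPM in clones 2 and 11. Its change was 1.12 ± 0.37 without the block (edgeR adjusted p = 0.638) and 1.02 ± 0.20 with it (edgeR adjusted p = 0.0203). MDM4, which inhibits p53, went the other way. It stood at 76.8 and 74.2 CPM before and 70.0 and 40.0 CPM after, and clone 11 was 0.539-fold of its untreated level. The edgeR change was -0.47 ± 0.27 (adjusted p = 0.677), and -0.52 ± 0.16 with the block (adjusted p = 0.117), so MDM4 was not called. CCNG1, cyclin G1, differed by only 0.14 and 0.10 in the 2 clones. MDM2 shares exon positions with the carboxypeptidase M gene on the other strand, and whether the counting used strand is not given in the sources used here.

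The genes of cell cycle arrest held the largest changes. CDKN1A stood at 7.85 and 3.94 CPM in untreated WT clones 2 and 11, and at 195 and 18.9 CPM after H2O2. This was 24.8-fold in clone 2 (log2 4.63, 95% interval 4.42 to 4.86) and 4.80-fold in clone 11 (2.26, 1.93 to 2.61). The lower treated library was still above every untreated library except MUTYH knockout clone 8, which had 19.3 CPM. The edgeR change was 4.17 ± 1.11 (adjusted p = 0.638), and 3.66 ± 0.38 with the clone block (adjusted p = 0.000503). An antisense RNA, DINOL, overlaps its exons. GADD45A, a stress sensor that slows the cycle and aids repair, rose from 7.85 and 6.16 CPM to 64.2 and 27.0 CPM. The clones were closer here, at 8.18-fold and 4.39-fold, and the edgeR change was 2.69 ± 0.44 (adjusted p = 0.638), or 2.60 ± 0.20 with the block (adjusted p = 3.72e-05).

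PLK2, a polo-like kinase, rose from 6.25 and 3.23 CPM to 31.0 and 6.95 CPM, by 1.99 ± 0.73 in edgeR and by 1.78 ± 0.26 with the block (adjusted p = 0.00495). The treated library of clone 11 was only just above the untreated library of clone 2. BTG2, an antiproliferative factor, stood at 31.9 and 32.2 CPM before and at 99.7 and 25.7 CPM after. It was thus 3.12-fold higher in clone 2 and 0.799-fold of its level in clone 11, and edgeR gave 0.96 ± 0.58 (adjusted p = 0.691). PLK3, a related kinase, had 317 and 294 counts before and 619 and 255 counts after, and in clone 11 its interval of -0.46 to 0.03 held 0. Neither passed the test.

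The apoptosis genes were mixed. PMAIP1, which encodes the BH3-only protein NOXA, had 28.3 and 16.1 CPM untreated and 46.0 and 45.8 CPM treated, so that the clones differed before treatment and hardly after it. Its change was 1.04 ± 0.28 in edgeR and 1.08 ± 0.18 with the block (adjusted p = 0.00873). BBC3, which encodes the BH3-only protein PUMA, was 1.95-fold in clone 2 and 0.884-fold in clone 11, and did not pass (0.57 ± 0.53, edgeR adjusted p = 0.786). FAS, a death receptor, rose from 4.48 and 3.41 CPM to 15.8 and 4.97 CPM. Its edgeR change of 1.39 ± 0.56 lay at the threshold for a DEG, and was 1.23 ± 0.28 with the block (adjusted p = 0.0412), and its exons overlap those of STAMBPL1 and ACTA2.

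The death receptor TNFRSF10B had 110 and 138 CPM before and 221 and 144 CPM after, and TNFRSF10A, which is related to it, was 1.31-fold in clone 2 and 0.886-fold in clone 11. AEN, an apoptosis-enhancing nuclease, had 194 and 224 CPM before and 459 and 299 CPM after, and passed with the clone block by edgeR (0.82 ± 0.17, adjusted p = 0.0277) and not by DESeq2. PHLDA3, an inhibitor of AKT, went from 11.6 and 7.53 CPM to 54.9 and 8.06 CPM. It was the member with the second largest gap between clones, at 4.73-fold against 1.07-fold, and was a DEG with the block and not without it (1.27 ± 0.35, edgeR adjusted p = 0.079). BAX, the pore-forming effector, was 1.71- and 1.20-fold. APAF1, the apoptosome scaffold, CDIP1 and TP53I3, a quinone oxidoreductase, were at 0.13, 0.46 and 0.71 on the log2 scale in clone 2 and 0.07, 0.32 and 0.01 in clone 11.

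Of the DNA repair members, 3 of 4 were higher in clone 2 and at or below their untreated level in clone 11. DDB2, a damage sensor of nucleotide excision repair, stood at 43.6 and 38.0 CPM before and at 80.7 and 34.2 CPM after. XPC, which acts in the same repair pathway, was 1.74- and 0.983-fold, and POLH, a translesion polymerase, 1.59- and 0.930-fold. RRM2B, a subunit of ribonucleotide reductase, differed from these in having like changes, 1.21- and 1.29-fold. None of the 4 was called. Of the metabolic genes, SESN1, a sestrin, went from 11.8 and 10.5 CPM to 38.4 and 11.1 CPM, 3.24-fold in clone 2 and 1.06-fold in clone 11 (edgeR 1.14 ± 0.56, adjusted p = 0.647). FDXR, ferredoxin reductase, was 1.86- and 1.00-fold, and TIGAR, a fructose bisphosphatase, 1.29- and 1.22-fold.

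ZMAT3, an RNA-binding zinc finger protein, rose from 20.1 and 15.6 CPM to 74.0 and 23.0 CPM (1.43 ± 0.53 in edgeR and 1.24 ± 0.23 with the block, adjusted p = 0.0186). TRIAP1, an inhibitor of apoptosis, was 1.68- and 1.42-fold in the 2 clones, and passed with the block by edgeR (0.63 ± 0.13, adjusted p = 0.0295) and not by DESeq2. RPS27L, a ribosomal protein paralogue whose reads may be shared with RPS27, had 42.7 and 39.0 CPM before and 90.2 and 53.2 CPM after (0.76 ± 0.15 with the block, adjusted p = 0.0258). FBXO22, a ubiquitin ligase adaptor, and TP53TG1 did not pass, and the intervals of TP53TG1, with 20 to 36 counts a library, held 0 in both clones. EDA2R had 0 counts in both untreated WT libraries and 16 and 2 in the treated libraries of clones 2 and 11.

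**Figure D3:**
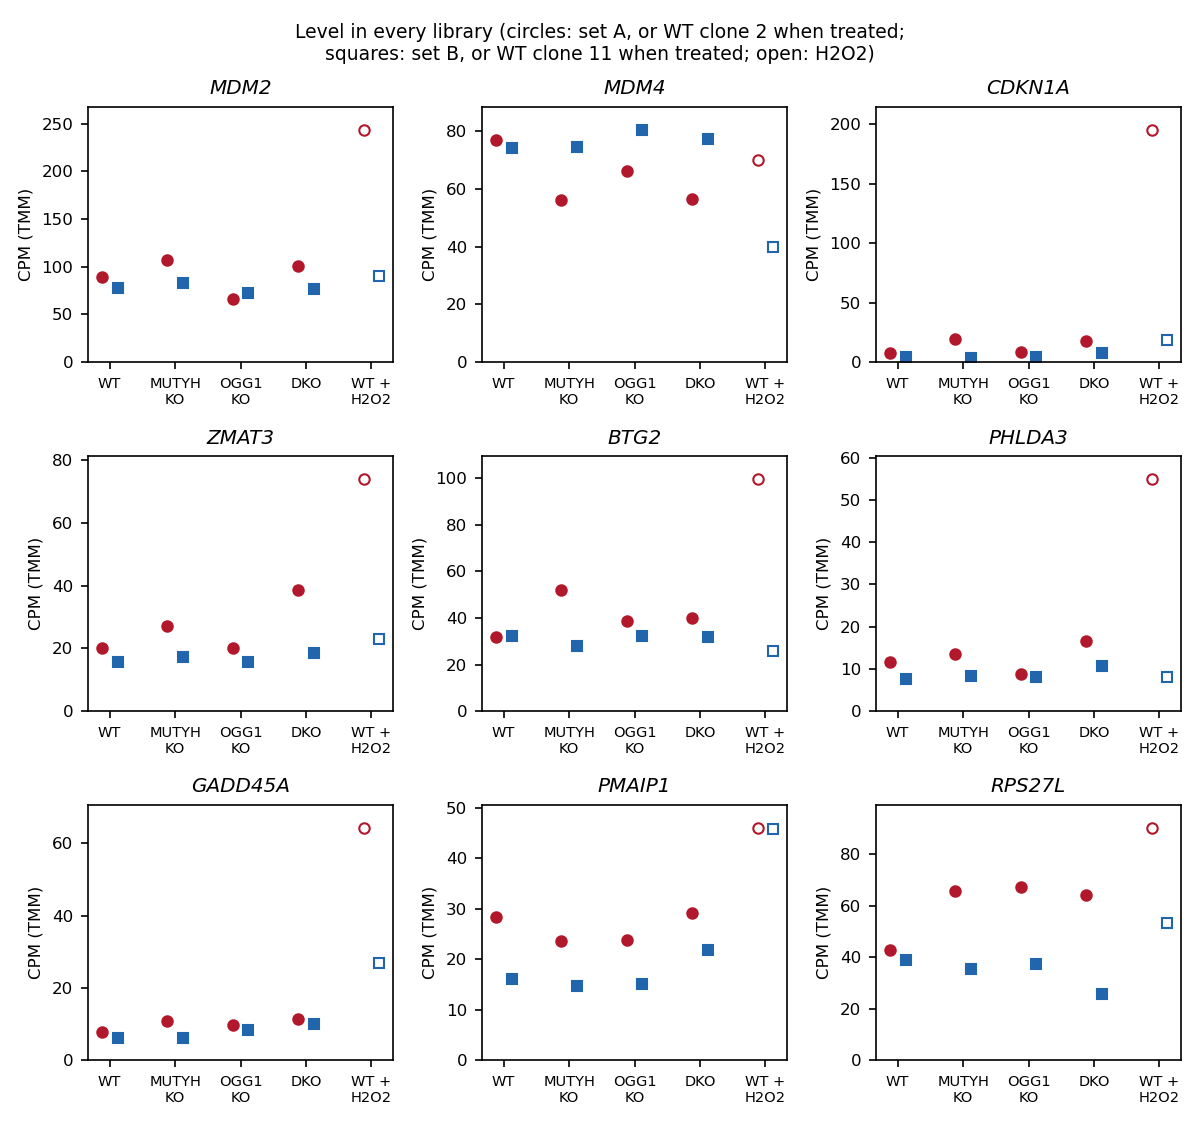
TMM-scaled CPM (y axis, from 0) of 9 members in each of the 10 libraries, by group. Filled symbols are untreated libraries and open symbols treated ones, with red circles for set A or treated WT clone 2 and blue squares for set B or treated WT clone 11. The CDKN1A panel runs from 3.69 CPM in MUTYH knockout clone 7 to 195 CPM in treated WT clone 2.

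The knockouts were compared with WT to see whether loss of the glycosylases alone alters these genes. In edgeR without a block, 0 members were DEGs in MUTYH knockout (1.19% of 17881 genes), in OGG1 knockout (1.67%) or in DKO (1.77%). None passed with p adjusted over all genes, where the background was 0.00559% in MUTYH knockout and 0.0% in the others. By the DESeq2 Wald test the numbers of DEGs and of adjusted calls were also 0 in each knockout. Shares of all genes under that test are not given here, so these counts are not set against other genes. By edgeR unadjusted P, at most 0.05, the counts were 0 members in MUTYH knockout (1.72%), 1 in OGG1 knockout (2.74%) and 0 in DKO (2.94%). The 1 was POLH, with 43.6 and 39.6 CPM in WT clones 2 and 11 against 32.5 and 30.9 CPM in OGG1 knockout clones 1 and 22 (-0.39 ± 0.16, edgeR adjusted p = 0.999). The log2 change lay below 0 for 7 of 32 members in MUTYH knockout (47.0% of all genes), 15 in OGG1 knockout (47.4%) and 6 in DKO (49.8%). The median changes were 0.11, 0.00 and 0.17.

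CDKN1A illustrates the spread between clones. It had 3.69 and 19.3 CPM in MUTYH knockout clones 7 and 8, 3.89 and 8.52 CPM in OGG1 knockout clones 1 and 22, and 7.34 and 17.4 CPM in DKO clones 4 and 14, against 7.85 and 3.94 CPM in WT clones 2 and 11. Every group overlapped WT. The edgeR changes were 0.95 ± 0.80, 0.07 ± 0.80 and 1.07 ± 0.80 in MUTYH knockout, OGG1 knockout and DKO. MDM2 differed from WT by 0.17 ± 0.19, -0.27 ± 0.19 and 0.09 ± 0.19, and MDM4 by -0.21 ± 0.22, -0.04 ± 0.22 and -0.17 ± 0.22. Genes within 10 Mb of MDM4 had median changes of -0.11, -0.08 and -0.16 in the same comparisons. Whether the MDM4 values follow their region was not tested. In DKO both libraries were above both WT libraries for 9 members (13.1% of all genes) and below for 2 (12.6%).

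With the 2 sets of libraries as a block, DKO had 1 DEG among the members, CDKN1A (1.02 ± 0.33, edgeR adjusted p = 0.596), where 2.44% of all genes were DEGs. Before adjustment 8 members had P of at most 0.05 (7.32% of all genes), CDKN1A, ZMAT3, GADD45A, PHLDA3, PLK2, SESN1 and BAX higher and APAF1 lower. The sets were found from these same libraries, so the block removes spread that it was chosen to capture. The share of all genes at this threshold was 2.94% without it, and no conclusion is drawn from the P values of the blocked fits. Within the sets, DKO was above WT in both for 16 of 32 members (26.4% of all genes) and below in both for 2 (27.6%). MUTYH knockout had nearly the same split, with 15 members above (27.4%) and 1 below (23.7%), and OGG1 knockout had 8 above (27.2%) and 8 below (26.3%). All 3 comparisons share the WT libraries. In DKO, CDKN1A was higher by 1.15 in set A and 0.90 in set B, GADD45A by 0.53 and 0.70, and PHLDA3 by 0.50 and 0.49. With this block MUTYH knockout had 2 members at that threshold, BAX and TP53I3 (4.46%), and OGG1 knockout had POLH (7.18%). In each of the 3 blocked comparisons 0 members passed with adjusted p (0.00559% of all genes in MUTYH knockout, 0.0% in the others).

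**Figure D4:**
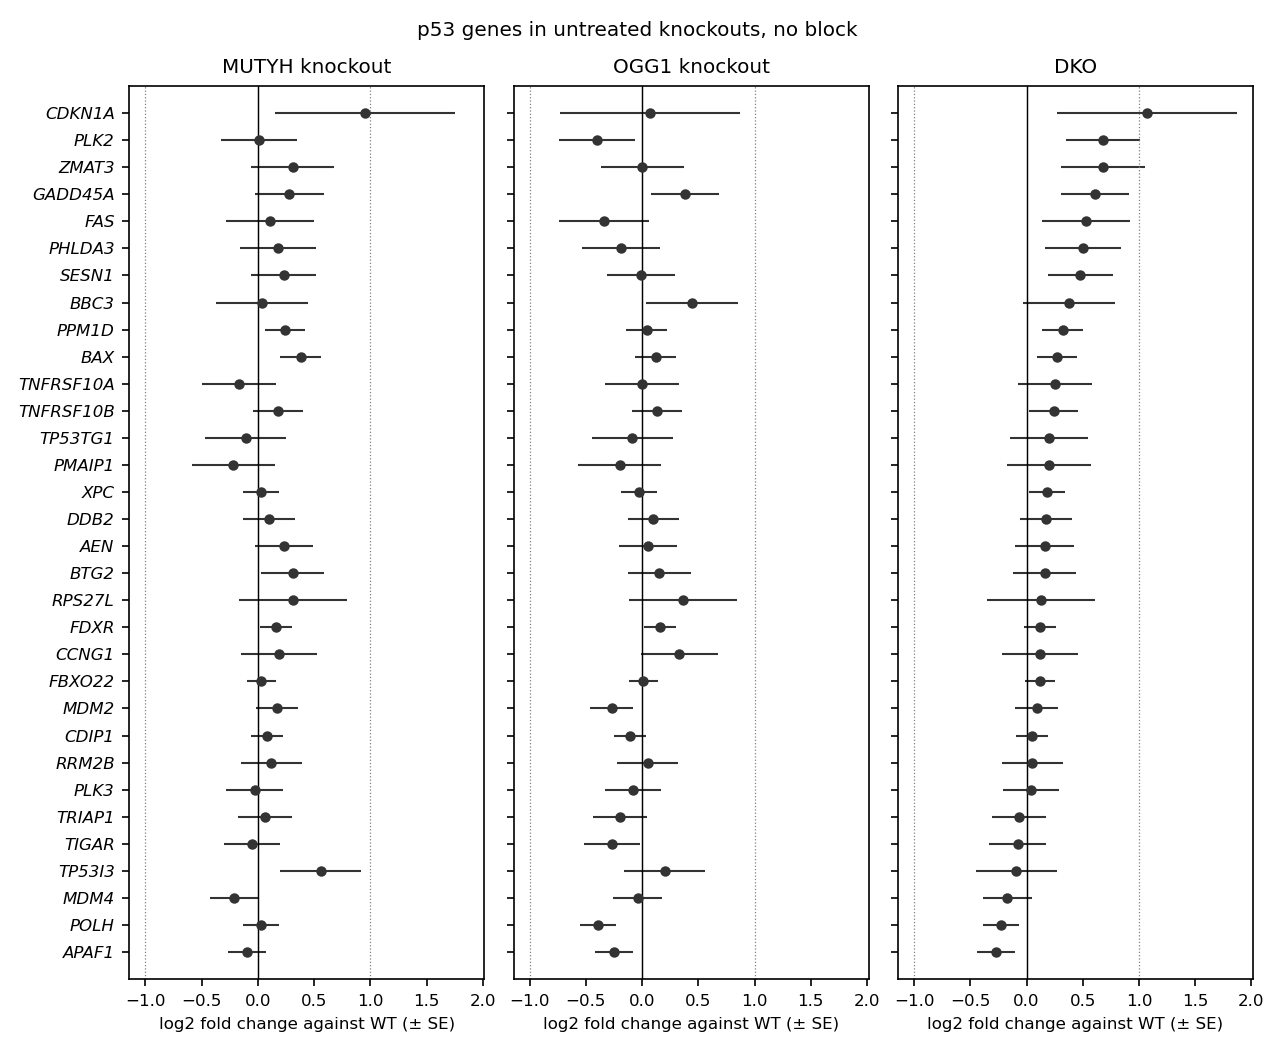
Log2 fold change of each member in untreated knockouts against WT (x axis, edgeR without a block), with SE as bars and dotted lines at a 2-fold change, ordered by the change in DKO. CDKN1A in DKO, at 1.07 with an SE of 0.80, is the one value past the dotted lines, and none passed the test.

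Part of the spread between untreated clones followed the 2 sets of libraries. Every set A library lay above every set B library for 9 of 32 members (15.4% of all genes), CDKN1A, ZMAT3, BBC3, PMAIP1, RRM2B, DDB2, CCNG1, TRIAP1 and RPS27L. The reverse held for TNFRSF10A alone (13.8%). The set A clone was the higher in all 4 genotypes for 15 members (24.4% of all genes) and the lower for 3 (22.6%), and the median member difference was 0.22 against 0.01 over all genes. For CDKN1A it was 0.99 in WT, 2.38 in MUTYH knockout, 1.13 in OGG1 knockout and 1.25 in DKO. The sets come from the data, so the difference between them was not tested. WT clone 2, with the larger H2O2 response, is in set A. MDM4, BTG2 and PHLDA3 lie on the long arm of chromosome 1, where the median neighbour within 10 Mb was higher by 0.34 in untreated WT clone 2 than in clone 11, against 0.05, -0.01 and 0.63 for the 3 genes. After H2O2 those neighbours changed by a median of -0.02 to 0.00 in clone 2 and 0.12 to 0.13 in clone 11.

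**Figure D5:**
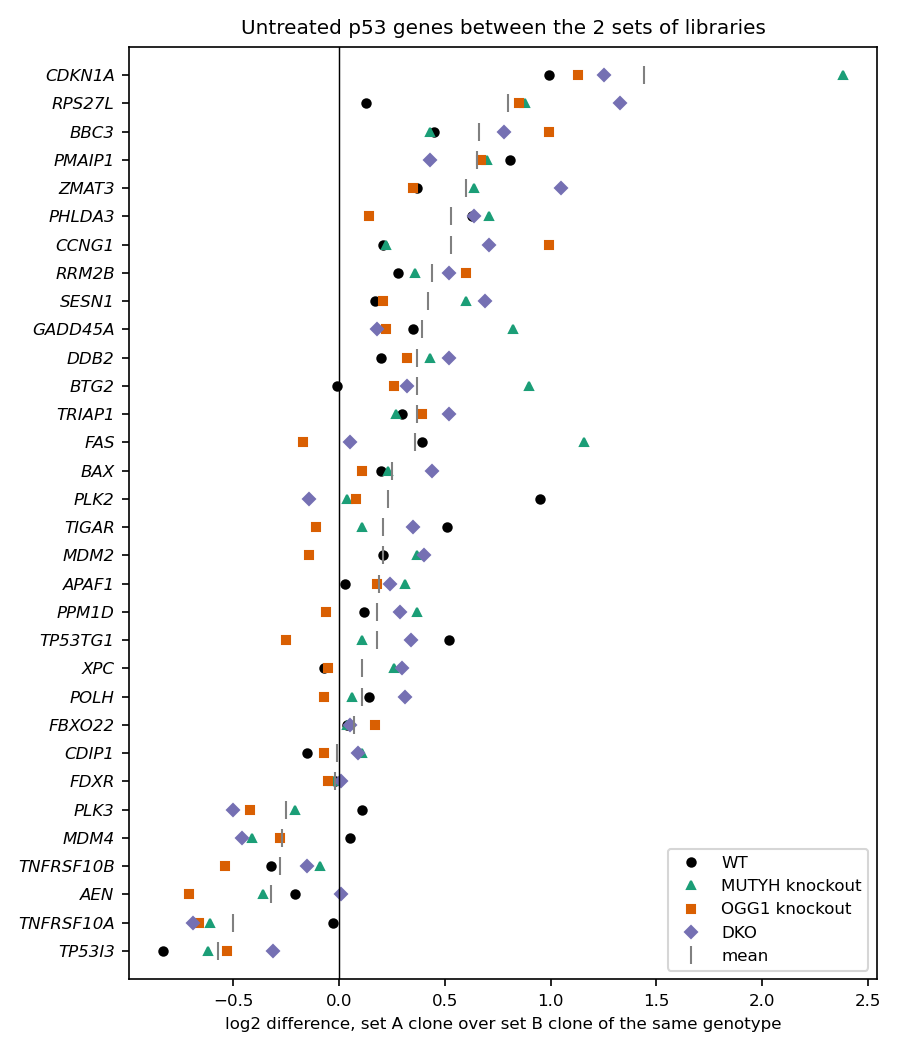
Log2 difference between the set A and the set B clone of each genotype (x axis) for the 32 tested members, with a symbol per genotype and a bar at the mean. CDKN1A, at 0.99 to 2.38, and PMAIP1, at 0.43 to 0.81, lie above 0 in all 4 genotypes.

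Other genes of the pathway were taken from lists drawn up alongside the members. Of 55 tested further p53 targets, 3 were DEGs after H2O2 without the block, all higher (0.741% of all genes): GDF15, ATF3 and SESN2. With the block, 7 passed after adjustment by edgeR, all higher (1.18%), and 5 by the DESeq2 Wald test (0.688%). The 7 were these 3 with KITLG, E2F7, BLOC1S2 and ISCU. On the log2 scale ATF3 changed by 1.26 in clone 2 and 1.91 in clone 11, and SESN2 by 1.17 and 1.21. Whether p53 caused any of these changes was not tested. GDF15, a stress cytokine that other pathways also induce, had 10 and 8 counts in untreated WT clones 2 and 11 and 537 and 291 after H2O2 (edgeR with the block, adjusted p = 1.73e-06). Its log2 change was 5.78 in clone 2 and 5.18 in clone 11. GDF15 had 12 and 11 counts in MUTYH knockout, 19 and 30 in OGG1 knockout and 142 and 101 in DKO. It was a DEG in OGG1 knockout (1.44 ± 0.41, edgeR adjusted p = 0.999) and DKO (3.75 ± 0.41, edgeR adjusted p = 0.318). DEGs made up 1.67% and 1.77% of all genes in these 2 comparisons. The number of further targets called in the knockouts is not given here. SESN2, the sestrin related to SESN1, stood at 38.5 and 32.3 CPM before and 86.3 and 74.5 CPM after. Among these targets 11 of 55 were over 2-fold higher in clone 2 (2.36% of all genes) and 3 in clone 11 (2.54%). With its sign kept, the change was higher in clone 2 for 39 (47.0%), a smaller fall counting as higher. Of 19 tested p53 family members and upstream regulators, and of 20 cell cycle genes repressed through p21 and the DREAM complex, 0 were DEGs or passed after adjustment in any of the 4 comparisons, with or without the blocks. Of all genes, DEGs made up 1.19% to 1.77% without the blocks and 1.78% to 2.78% with them. Adjusted calls made up at most 0.00559% of all genes, but 2.57% after H2O2 with the clone block. Lists of this length can hold 0 at such shares, so no conclusion is drawn from the 0.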

How the data were processed

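Total RNA was sequenced on a DNBSEQ platform, with 1 library per clone in each condition, untreated or treated. Per the study's methods and the submitters' processing notes, the authors aligned reads to GRCh38 with HISAT2 2.2.1 and counted them per Ensembl gene with Rsubread. The deposited values are raw counts. Strand use and the handling of multi-mapping reads are not given in the sources used here. The WT columns occur in both tables and hold identical values, and were used once.

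Counts were fitted over all genes with edgeR 4.0.16 in R 4.3.3 (quasi-likelihood test with legacy=TRUE, TMM factors, filterByExpr, two-sided, Benjamini-Hochberg adjustment), with 8 untreated libraries for the genotypes and 4 WT libraries for H2O2. The study's criterion for a DEG was kept (P of at most 0.05 before adjustment, log2 change beyond 1). H2O2 was fitted without and with clone as a block, since treated and untreated libraries share clones (the clone difference correlated at r = 0.681 between them, over 16997 genes). The SE of an edgeR change is its absolute value divided by the square root of the F statistic of the quasi-likelihood test. DESeq2 1.42.0 was an alternative. Scripts were tested on simulated counts. Per-clone changes are ratios of TMM-scaled CPM. The members and lists were chosen with earlier results of these data known. Values were given in full for MDM2, MDM4 and CDKN1A, for members called, and for members whose changes in the WT clones differed by over 1 or were opposite by over 0.5 each (18 members), and other members by their changes in each clone.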

Additional observations from a re-analysis of the deposited data

Results flagged for a closer look

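DDB2, BTG2 and TNFRSF10A went opposite ways after H2O2 in the 2 WT clones, with both counting-error intervals off 0. The log2 change in clones 2 and 11 was 0.89 and -0.15 for DDB2, 1.64 and -0.32 for BTG2, and 0.39 and -0.17 for TNFRSF10A. Each clone has 1 treated and 1 untreated library, so the difference was not tested.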

How the results depend on the processing

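No paired analysis was possible for the knockouts because the genotypes share no clone number, so the 2 sets of libraries served as the block there. After H2O2, members called DEGs numbered 7, but 4 with no filter on low counts and from 2 to 15 with single libraries left out (2 without untreated WT clone 11 or treated clone 2, 15 without treated clone 11). After adjustment they numbered 0, but 10 with clone as a replicate block, 1 by the DESeq2 Wald test, and 4 by that test with the block, an alternative chosen after seeing the data. FAS missed its call with DESeq2 size factors or legacy=FALSE in edgeR. Shares of all genes are not given without the filter, with libraries left out or by DESeq2 without a block. Those counts are therefore not set against other genes. From without treated clone 2 to without treated clone 11, the H2O2 change ranged from -0.44 to 1.16 for BBC3, -0.28 to 0.98 for DDB2, -0.29 to 1.05 for PLK3, -0.34 to 1.63 for BTG2, -0.27 to 2.52 for PHLDA3 and -0.03 to 1.77 for SESN1. In DKO, DEGs numbered 0, but 1 with the sets as a block and from 0 to 1 with single libraries left out (ZMAT3 without DKO clone 4, PLK2 without WT clone 2). In MUTYH knockout they numbered from 0 to 1 (CDKN1A at 1.69 without clone 7, TP53I3 without WT clone 11). Changes that turned with a library left out were, in MUTYH knockout without clone 8, MDM2 (-0.01, up to 0.34) and CDKN1A (-0.67); in OGG1 knockout, MDM4 (0.10 without clone 22, down to -0.20) and CDKN1A (-0.34 without WT clone 11, -0.59 without clone 22, up to 0.65); and in DKO, MDM2 (-0.01 without WT clone 11, -0.13 without clone 14, up to 0.27) and MDM4 (0.03 without clone 14, down to -0.43). The cause was not tested, and leaving out libraries leaves a group with 1 library, assumed to vary like the others. Scaling by library totals or DESeq2 size factors, also added later, gave 12 and 14 members over 2-fold higher in clone 2. It left the counts for clone 11, for the signed change being higher in clone 2 and for the sets as they were.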
